A study of Mus musculus with 8 samples.

Results

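The genes described here are 10 that mark the endothelium of brain vessels and its barrier: Cldn5, Cdh5, Pecam1, Flt1, Ly6a, Ly6c1, Slc2a1, Slco1a4, Abcb1a and Mfsd2a. They were chosen by name from the 17700 genes listed in the count tables, and all 10 were found there. RNA-seq libraries of total RNA were made from whole frozen cerebellum of C57BL/6JN mice, for which the labels give no genetic change and no treatment other than age. The old group held 4 mice, males of 93 and 83 weeks (old 1 and old 3) and females of 83 and 102 weeks (old 2 and old 4). The young group held 4 mice, males of 19 weeks (young 1 and young 2) and females of 19 and 22 weeks (young 3 and young 4). A design text of the series names liver and other ages, and the labels of each sample were followed here for tissue, age and sex. Counts per library totalled 6079485 to 7236720, and a gene with 3 counts would stand at 0.421 to 0.511 CPM, the count scaled to the size of its library.

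Endothelial cells of brain capillaries are sealed to each other by tight and adherens junctions, carry few vesicles across, and take up nutrients through dedicated carriers while efflux pumps return many drugs to the blood. Together these features make up the blood-brain barrier. Because endothelial cells are a small share of cerebellar cells, which are mostly granule neurons, their transcripts are diluted in RNA of the whole tissue. In such bulk libraries, fewer endothelial cells and less RNA per endothelial cell cannot be told apart.

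Several of the loci share sequence with close relatives, which bears on how far their counts can be read. Ly6a and Ly6c1 belong to a cluster of small surface antigens on chromosome 15 that includes Ly6c2, a gene of monocytes. The first 90 coding bases are shown 5′ to 3′ because the counts of these genes rest on telling them apart, with capitals marking each base that differs from Ly6c1 (GENCODE M21 transcripts, GRCm38).
Ly6c1: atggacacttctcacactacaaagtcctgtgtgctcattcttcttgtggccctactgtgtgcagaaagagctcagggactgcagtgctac
Ly6c2: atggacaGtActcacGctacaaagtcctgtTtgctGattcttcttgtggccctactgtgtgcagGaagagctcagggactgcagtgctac
Ly6a: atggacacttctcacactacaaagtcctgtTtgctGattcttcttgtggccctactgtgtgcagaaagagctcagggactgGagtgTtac
Over this stretch Ly6c2 differed from Ly6c1 at 6 bases and Ly6a at 4. Over the aligned coding sequence, 90.6% of bases were identical between Ly6c1 and Ly6c2, and 76.3% between Ly6a and Ly6c1. Of all stretches of 50 bases in its exons, Ly6c1 shared 32.8% with another gene, Ly6a 19.0% and Abcb1a 17.6%, the last mostly with its neighbour Abcb1b. For Slco1a4 the share was 1.61%, for Pecam1 0.998% and for Flt1 0.112%, and it was 0 for Cldn5, Cdh5, Slc2a1 and Mfsd2a. The counts of Ly6a, Ly6c1 and Abcb1a are less certain than the others, because the treatment of reads that map to several places is not given in the sources used here. Ly6c2 itself had at most 4 counts in any library, and Abcb1b averaged 2.74 ± 1.33 CPM in old mice and 1.92 ± 0.374 CPM in young mice (SD, n = 4 each). Exons of Abcb1a overlap Gm42686 and those of Slc2a1 overlap Gm12868, both on the opposite strand, and without a stated strand setting reads of such partners cannot be told apart.

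The 250 bases before the annotated start of Ly6c1 and of Cldn5 are shown because their age differences, neither past the threshold, had opposite signs (RefSeq, GRCm38.p6, printed along the strand of each gene, with GGAA or its complement TTCC in capitals, the core of sites for ETS factors, which act widely in endothelial genes).
Ly6c1, chr15:75048838-75049087, minus strand: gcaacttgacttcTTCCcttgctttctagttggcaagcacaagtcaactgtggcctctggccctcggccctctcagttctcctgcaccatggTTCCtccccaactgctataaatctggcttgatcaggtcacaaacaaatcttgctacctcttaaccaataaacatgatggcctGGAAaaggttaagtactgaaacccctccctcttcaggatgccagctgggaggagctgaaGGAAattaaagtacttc
Cldn5, chr16:18776597-18776846, plus strand: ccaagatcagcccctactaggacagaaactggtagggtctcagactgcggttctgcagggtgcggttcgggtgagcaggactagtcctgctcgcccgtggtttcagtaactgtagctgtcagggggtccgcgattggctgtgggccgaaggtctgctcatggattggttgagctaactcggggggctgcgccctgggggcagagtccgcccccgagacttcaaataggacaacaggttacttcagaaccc
The Ly6c1 window held 4 matches and the Cldn5 window held 0, and the window of the other Ly6c1 start, which overlaps the first, held 6. Promoters were at hand for 7 of the 10 genes, in 8 windows, because Ly6c1 has a pair of starts; Ly6a, Cdh5 and Pecam1 are named only. GGAA on either strand was in 6 of the 8 windows and in 93.4% of all 32851 promoter windows of this length. All motifs were searched on both strands. The longer AGGAAG, which contains GGAA, was in 4 of the 8 windows, against 29.5% of all windows. ACGTG, the core of hypoxia response elements, was in 2 of the 8, against 16.6% of all. The Abcb1a window, chr5:8566841-8567090, does not adjoin the GENCODE M21 start of that gene at chr5:8660077. It held 5 matches of GGAA and 2 of AGGAAG and is included in these counts. TTCNNNGAA, the site form of STAT factors, was in 0 of the 8 windows and 7.02% of all. A form of the interferon-stimulated response element was in 0 of the 8 windows and 2.98% of all. These matches describe the letters of each window and were not tied to any measurement here. The age log2 fold change of Cldn5 also changed sign without young 1 (0.087) and without old 1 (0.004).

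All 10 genes were detected in every library, from 19 counts for Mfsd2a in old 1 to 611 for Flt1 in old 4. Set per kilobase of exon, so that genes of different length can be compared, Cldn5 and Slc2a1 stood highest, with 22.8 ± 6.04 and 20.2 ± 3.61 CPM per kilobase (SD, n = 8). Among the 14191 genes tested, 85.8% stood below Cldn5 and 83.2% below Slc2a1. Ly6a followed at 9.67 ± 5.01, Ly6c1 at 6.84 ± 3.13, Flt1 at 5.69 ± 0.997, Slco1a4 at 4.96 ± 1.21 and Abcb1a at 4.63 ± 0.586 CPM per kilobase. Cdh5 was lower at 2.92 ± 0.401, and Pecam1 and Mfsd2a were lowest, both at 2.03, with SDs of 0.385 and 0.423 CPM per kilobase. The ranges over the 8 libraries did not overlap between Abcb1a and Cdh5 or between Cdh5 and Pecam1, and all other neighbours in this order overlapped. With the length of the longest transcript in place of all exons, Ly6c1 stood at 13.6 CPM per kilobase, above Ly6a at 12.2. Pecam1 then stood at 3.675, above Cdh5 at 3.067, so the order of Cdh5 and Pecam1 depends on the length used.

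**Figure D1:**
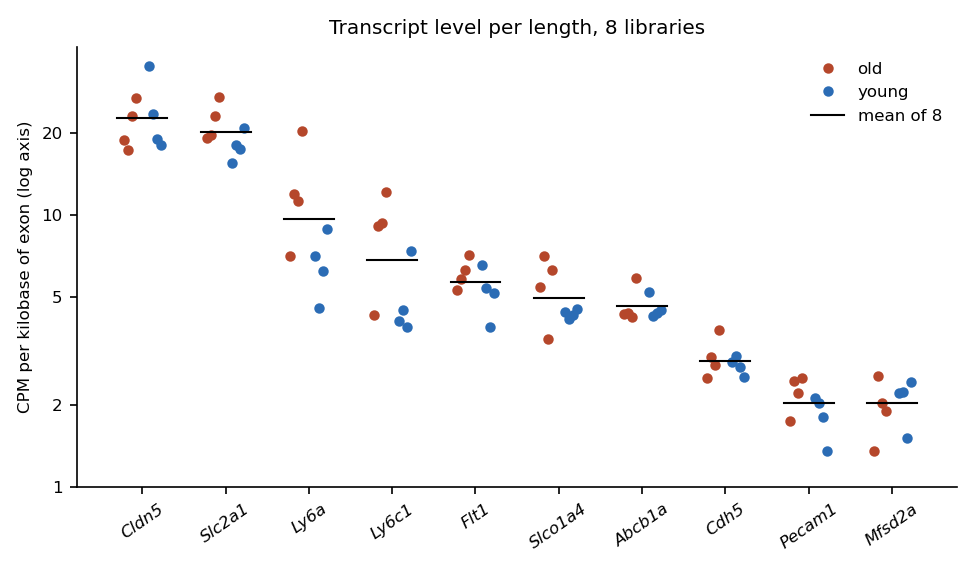
Level of each gene as CPM per kilobase of exon on a log axis, with 1 point per library (old left of young within a gene) and a bar at the mean of the 8 libraries. Cldn5 and Slc2a1 lie highest, around 22.8 and 20.2, and Pecam1 and Mfsd2a lowest, both at 2.03.

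The main question of the design was how the old cerebellum differs from the young one. For the 10 barrier genes, the surface antigens Ly6a and Ly6c1 had the largest log2 fold changes, 0.89 and 0.79, with 15.3 ± 6.76 and 14.6 ± 5.46 CPM in old mice, against 8.05 ± 2.15 and 8.29 ± 2.74 CPM in young mice (SD, n = 4 each). The glucose carrier Slc2a1, the organic anion carrier Slco1a4, the junction protein Pecam1 and the receptor Flt1 also had higher means in old mice, with log2 fold changes of 0.23 to 0.34, and those of Cdh5, Abcb1a, Mfsd2a and Cldn5 lay between -0.13 and 0.11. No gene of the 10 passed the test: edgeR's quasi-likelihood test called 0 of 10 at an adjusted p under 0.05, against 17 of 14191 genes tested, or 0.12%. DESeq2 and limma-voom also called 0 of the 10. At an unadjusted p under 0.05, 4 of the 10 were reached, all with the higher mean in old mice, against 11% of all genes and 5.25% with old higher. The log2 fold change was positive for 8 of the 10 with a median of 0.26, while over all genes tested 48.6% were positive and the median was -0.0056. For all 10 genes the old and young values overlapped, whereas 6.57% of all genes had no overlap of ages.

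**Figure D2:**
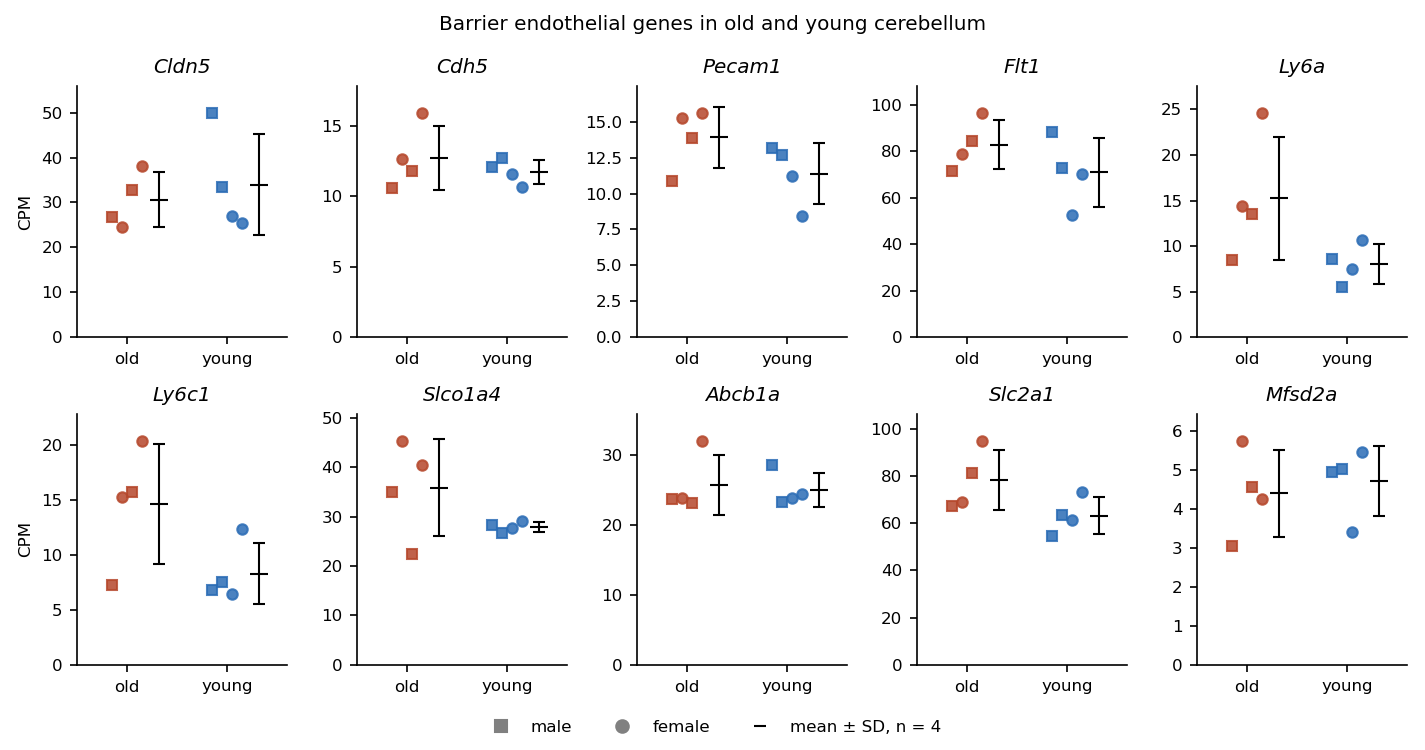
CPM of each gene in the 4 old (left) and 4 young (right) libraries, squares for males and circles for females, with the mean ± SD beside each group. Old 4, a female, is the highest library for 7 of the 10 genes, and the ages overlap in every panel.

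Among the junction genes, Cldn5 encodes claudin-5, the main sealing claudin of brain endothelium (chr16:18776847-18778262, plus strand, GENCODE M21). It stood at 26.8, 24.6, 32.9 and 38.2 CPM in old 1 to 4, against 49.9, 33.4, 26.9 and 25.5 CPM in young 1 to 4. Young 1 was the highest library by a wide gap, and the other 7 libraries were interleaved. The log2 fold change, old minus young, was -0.13 ± 0.21 (SE), with an edgeR adjusted p of 0.865, and its 95% interval ran from -0.59 to 0.34. The estimate turned to 0.09 without young 1 and to 0.004 without old 1.

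Cdh5 encodes VE-cadherin, the cadherin of endothelial adherens junctions (chr8:104101625-104144511, plus strand). Old 1 to 4 had 10.6, 12.7, 11.8 and 15.9 CPM and young 1 to 4 had 12.1, 12.7, 11.6 and 10.7 CPM. Only old 4 stood apart from an otherwise narrow band. The difference was 0.11 ± 0.16 on the log2 scale (SE, 95% interval -0.23 to 0.46, adjusted p = 0.825, edgeR), and -0.01 without old 4.

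Pecam1, an adhesion protein of the borders between endothelial cells that platelets and leukocytes also carry, lies on chromosome 11 (chr11:106654217-106750628, minus strand). Its values were 10.9, 15.3, 13.8 and 15.6 CPM in old 1 to 4 and 13.2, 12.7, 11.3 and 8.42 CPM in young 1 to 4. Of the 4 old libraries 3 lay above every young one, with old 1 below young 1, 2 and 3. On the log2 scale the difference was 0.30 ± 0.18 (SE, 95% interval -0.09 to 0.69, adjusted p = 0.583, edgeR), and it was 0.14 without young 4 and 0.43 without old 1.

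The receptor of the group is Flt1, which binds VEGF-A and limits its action on endothelial growth (chr5:147561604-147726011, minus strand). Its transcripts reached 71.6, 78.7, 84.4 and 96.4 CPM in old 1 to 4, against 88.4, 72.9, 52.3 and 70.0 CPM in young 1 to 4. The groups overlapped broadly, with young 1 above 3 of the old libraries. Its log2 fold change was 0.23 ± 0.15 (SE, 95% interval -0.09 to 0.55, adjusted p = 0.609, edgeR), and it was 0.10 without young 3, 0.11 without old 4 and 0.35 without young 1. Kdr, the receptor that carries most of the growth signal of VEGF-A, averaged 10.1 ± 0.764 CPM in old and 11.1 ± 1.80 CPM in young mice (SD, n = 4 each).

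Ly6a encodes Sca-1, a surface antigen of endothelial, stem and lymphoid cells (chr15:74994877-74998031, minus strand). It was at 8.50, 14.4, 13.5 and 24.6 CPM in old 1 to 4 and at 8.53, 5.49, 7.50 and 10.7 CPM in young 1 to 4. Old 2, 3 and 4 lay above every young library, while old 1 lay at the level of young 1. The log2 fold change of 0.89 ± 0.25 (SE, 95% interval 0.35 to 1.44) had a p of 0.00406 before and 0.216 after adjustment in edgeR. It was 0.65 without old 4. The old libraries varied by 44.3% (CV), against 10.1% from counting alone, and the young ones by 26.8%, against 13.8% from counting.

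Ly6c1 encodes a surface antigen found on endothelium and on some leukocytes (chr15:75044018-75048830, minus strand). Old 1 to 4 carried 7.22, 15.3, 15.7 and 20.4 CPM and young 1 to 4 carried 6.82, 7.53, 6.48 and 12.4 CPM. The pattern was that of Ly6a, with old 2, 3 and 4 high, old 1 within the young range and young 4 the highest young library. The difference on the log2 scale was 0.79 ± 0.26 (SE, 95% interval 0.22 to 1.37, adjusted p = 0.287, edgeR), and 0.67 without old 4.

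**Figure D3:**
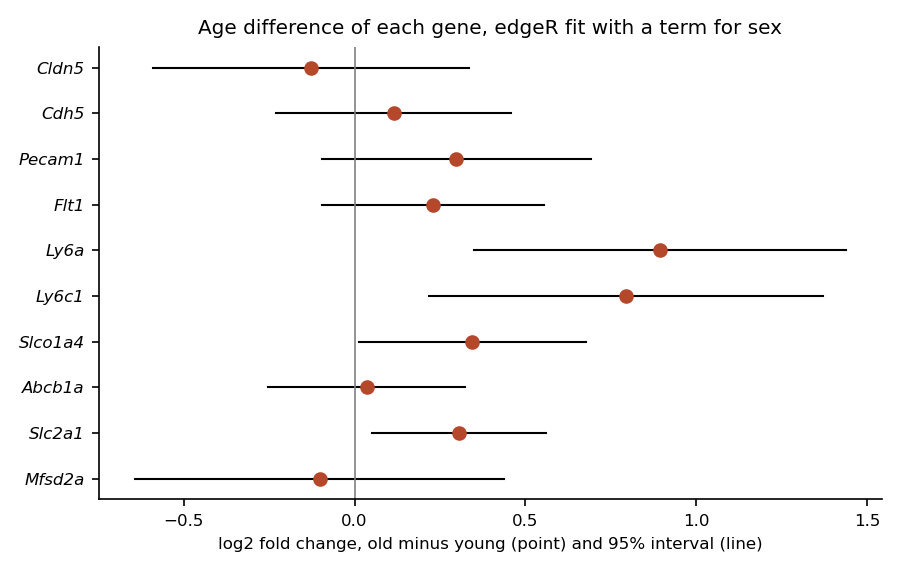
Log2 fold change of each gene, old minus young, from edgeR with a term for sex (point) and its 95% interval (line). The intervals of Ly6a, Ly6c1, Slco1a4 and Slc2a1 lie above 0, none of these 4 passes the adjusted threshold, and the other 6 intervals include 0.

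Of the 4 transporters, Slc2a1 encodes GLUT1, which carries glucose across the barrier and is also made by astrocytes and other cells (chr4:119108711-119137983, plus strand). It measured 67.4, 69.2, 81.3 and 95 CPM in old 1 to 4 and 54.6, 63.5, 61.5 and 73.4 CPM in young 1 to 4. Young 4 exceeded old 1 and old 2, and the other 3 young libraries lay below all old ones. On the log2 scale old mice were higher by 0.30 ± 0.12 (SE, 95% interval 0.05 to 0.56, adjusted p = 0.362, edgeR), and 0.21 without old 4.

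Slco1a4 encodes an organic anion transporting polypeptide of brain endothelium (chr6:141805440-141856199, minus strand). In old 1 to 4 it stood at 35, 45.3, 22.5 and 40.4 CPM, and in young 1 to 4 at 28.2, 26.7, 27.6 and 29.0 CPM. The young libraries were nearly equal, with a CV of 3.61% against 7.45% from counting, while the old ones included both the highest and the lowest of the 8. The old males, old 1 and old 3, lay on opposite sides of the young range. Between the groups the log2 fold change was 0.34 ± 0.15 (SE, 95% interval 0.01 to 0.68, adjusted p = 0.438, edgeR), and it was 0.25 without old 2 and 0.50 without old 3. Among the old libraries, the summed choroid plexus markers were highest in old 2 and lowest in old 3, as was Slco1a4. Their sums were 604, 1180, 52.7 and 519 CPM in old 1 to 4. Among the young libraries the markers did not move with Slco1a4. There the sums were 527, 344, 65.4 and 40.5 CPM in young 1 to 4, while Slco1a4 stayed at 26.7 to 29.0 CPM. The log2 fold change of Slco1a4 was 0.16 once the score of these markers entered the model. Adjusted p-values over the alternatives ran from 0.0846 without old 3 to 0.842 with the replicate number as a block, and the part of choroid plexus tissue was not tested further.

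Abcb1a encodes P-glycoprotein, the efflux pump that returns many drugs to the blood (chr5:8660077-8748575, plus strand). It had 23.7, 23.9, 23.1 and 32.0 CPM in old 1 to 4, against 28.5, 23.2, 23.9 and 24.4 CPM in young 1 to 4. All libraries other than old 4 and young 1 lay within a narrow band. The difference was 0.04 ± 0.13 on the log2 scale (SE, 95% interval -0.25 to 0.32, adjusted p = 0.95, edgeR), and -0.09 without old 4.

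Mfsd2a encodes the carrier of lysophosphatidylcholine with docosahexaenoic acid, which also restrains vesicle traffic across brain endothelium (chr4:122946850-122961188, minus strand). It had the fewest counts, and stood at 3.05, 5.76, 4.56 and 4.26 CPM in old 1 to 4 and at 4.96, 5.02, 3.41 and 5.47 CPM in young 1 to 4. The spread was near that of counting, with a CV of 25.2% in old and 19.1% in young libraries, against 18.7% and 18.0% from counting alone. Its log2 fold change was -0.10 ± 0.25 (SE, adjusted p = 0.915, edgeR), with a 95% interval of -0.64 to 0.44. With so few counts and 4 mice of each age, differences within that interval were not excluded.

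Old 4, the mouse of 102 weeks, was the highest library for Cdh5, Pecam1, Flt1, Ly6a, Ly6c1, Abcb1a and Slc2a1. The median deviation of the 10 genes from their 8-library means was 0.36 in old 4 on the log2 scale, and -0.19, 0.17 and 0.11 in old 1, 2 and 3. In young 1 to 4 it was 0.04, -0.09, -0.20 and -0.07. Without old 4 the median log2 fold change of the 10 genes was 0.16, the lowest of the values without 1 library. The same library also stood highest for the summed endothelial, microglial, leukocyte and interferon-stimulated lists. Among others, it was highest too for the erythroid (220 CPM), pericyte (368 CPM), fibroblast (375 CPM) and liver sinusoidal endothelium (78.3 CPM) sums. Its granule neuron sum, 5000 CPM, was the lowest of the 8 libraries. The part of these lists in the levels of the 10 genes was not tested.

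The endothelial context was read from 22 other pan-endothelial genes, such as Tek, Tie1, Kdr and Vwf. All 22 were tested, 16 had a positive and 6 a negative log2 fold change with a median of 0.18, and 0 were called. Their summed level was 557 to 699 CPM in old and 547 to 620 CPM in young libraries. Podxl, a sialomucin of the luminal face, was nearest the threshold of this list, with 55.2 ± 13.7 CPM in old and 39.3 ± 3.72 CPM in young mice (SD, n = 4 each; log2 fold change 0.48 ± 0.15 SE, adjusted p = 0.271, edgeR). The gene of this list with the most counts, the sphingosine-1-phosphate receptor S1pr1, which astrocytes and neurons also make, averaged 195 ± 27.5 CPM in old and 222 ± 38.2 CPM in young mice.

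Taken as a percentage of that pan-endothelial sum, Ly6a was 1.53, 2.58, 2.24 and 3.52% in old 1 to 4 and 1.40, 0.955, 1.21 and 1.95% in young 1 to 4. The largest part of the sum is S1pr1, which other cells also make, with means of 195 CPM in old and 222 CPM in young mice. The sum is therefore not a measure of endothelium alone. Ly6c1 was 2.39 ± 0.738% in old and 1.43 ± 0.56% in young mice, and Slc2a1 was 12.9 ± 0.741% in old and 10.8 ± 1.91% in young mice (SD, n = 4 each). Abcb1a stood at 4.24 ± 0.311% in old and 4.26 ± 0.385% in young mice. By this percentage Pecam1 (2.31 against 1.93%), Flt1 (13.7 against 12.1%), Slco1a4 (5.98 against 4.76%) and Cdh5 (2.1 against 2.0%) also had higher means in old mice. Cldn5 (5.03 against 5.76%) and Mfsd2a (0.736 against 0.81%) had lower means in old mice. With the score of the pan-endothelial list as a covariate, a setting chosen after the data were seen, the log2 fold change was 0.43 for Ly6a, 0.37 for Ly6c1, 0.27 for Slco1a4 and 0.22 for Slc2a1. In that fit Cldn5 was at -0.51 (unadjusted p = 0.0255, adjusted p = 0.604, edgeR). An unadjusted p under 0.05 was reached there by 1074 of 14191 genes, and 0 genes were called. Cdh5, Pecam1, Flt1 and Abcb1a turned negative in it, and the median of the 10 was -0.04.

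**Figure D4:**
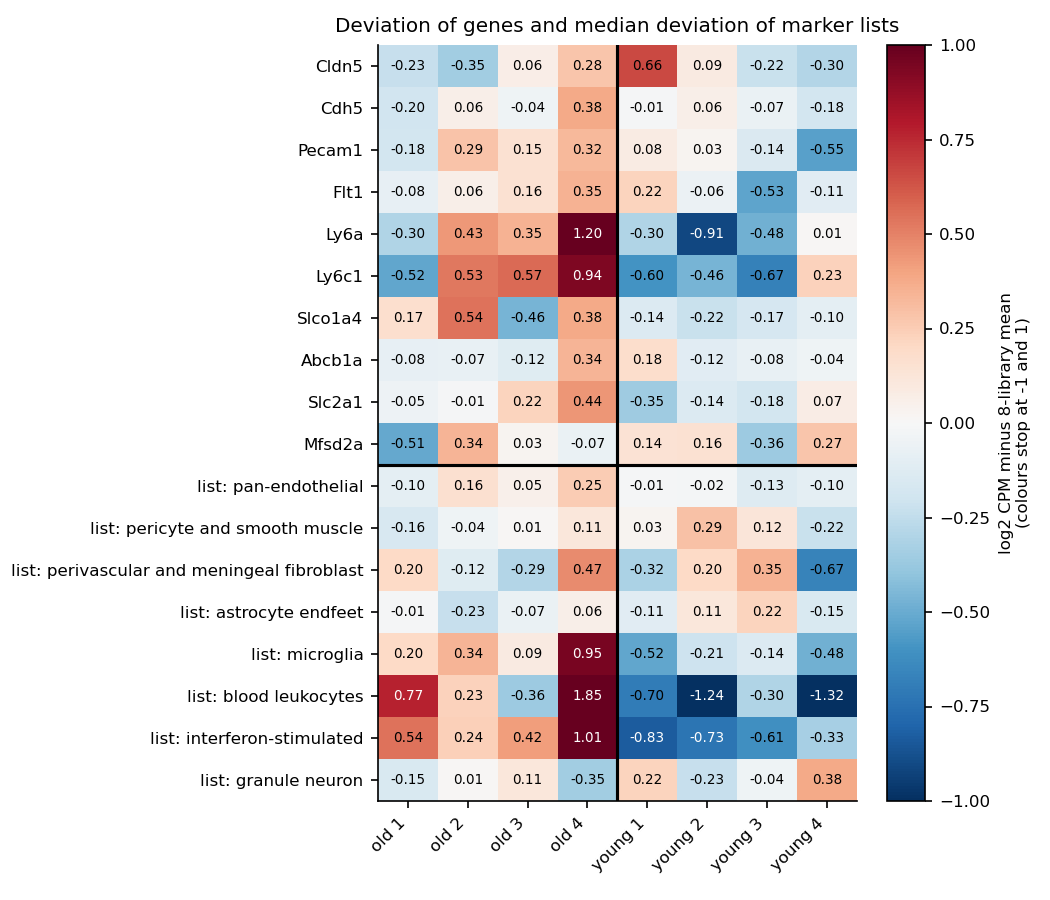
Deviation of each log2 CPM value from its 8-library mean for each barrier gene (upper rows) and the median deviation of marker lists (lower rows), old libraries left of young ones, with the value in each cell. Old 4 is high across most endothelial genes, at 1.20 for Ly6a and 0.94 for Ly6c1, and also for the microglial (0.95), leukocyte (1.85) and interferon-stimulated (1.01) lists. It is at 0.47 for the fibroblast list and at -0.35 for the granule neuron list.

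Other genes of the barrier were followed in lists by role. Of 17 tested genes of endothelial junctions, 12 had positive and 5 negative log2 fold changes (median 0.09) and 0 were called; F11r, the junctional adhesion molecule JAM-A, was at 13.8 ± 3.51 CPM in old and 9.26 ± 2.36 CPM in young mice (adjusted p = 0.387, edgeR). Of 22 barrier transporters and carriers, 14 were positive and 8 negative (median 0.10), with 0 called. The efflux pump Abcc4 came nearest, with 11 ± 2.5 CPM in old and 6.47 ± 0.676 CPM in young mice (log2 fold change 0.76 ± 0.18 SE, adjusted p = 0.148, edgeR). Its 4 old libraries, at 8.18 to 14.2 CPM, lay above the 4 young ones, at 5.58 to 7.21 CPM, as did those of 3.15% of all genes tested. The transferrin receptor Tfrc had the lower mean in old mice, 115 ± 28.3 CPM against 140 ± 18.9 CPM in young mice (adjusted p = 0.284, edgeR), and the groups overlapped.

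Wnt signalling through beta-catenin maintains the barrier state of brain endothelium. Of 20 genes of this programme 10 were positive and 10 negative, with a median of 0.01 and 0 called. Axin2, a target that reports the activity of the pathway in many cells, averaged 41.6 ± 5.49 CPM in old and 52.4 ± 7.53 CPM in young mice (log2 fold change -0.33 ± 0.11 SE, adjusted p = 0.271, edgeR). Genes of the VEGF family (4 positive, 4 negative) had a median of 0.00, and those of caveolae and fenestrae (4 positive, 3 negative) a median of 0.08, with 0 called in each. Of 15 genes of glucose transport and the hypoxia response, 5 were positive and 10 negative (median -0.06), and 0 were called; the neuronal glucose carrier Slc2a3 averaged 140 ± 9.74 CPM in old and 154 ± 7.53 CPM in young mice.

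The adhesion molecules with which activated endothelium holds leukocytes, 5 genes tested, had a median log2 fold change of 0.39 with 4 positive, 1 negative and 0 called. Icam1 was at 5.66 ± 2.68 CPM in old and 2.2 ± 0.616 CPM in young mice (log2 fold change 1.36 ± 0.33 SE, adjusted p = 0.162, edgeR). Its groups did not overlap, with 3.53 CPM the lowest old and 2.79 CPM the highest young value. Of all genes tested, 3.15% had no overlap with old higher. Vcam1 was at 22.4 ± 6.90 CPM in old and 15.5 ± 2.52 CPM in young mice (adjusted p = 0.326, edgeR). Sele, Selp and Madcam1 had a count of 0 in at least 1 library and were not tested.

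Ly6a and Ly6c1 are also known as genes that interferons induce. Of 23 interferon-stimulated genes tested, 23 had a positive log2 fold change (median 1.30), against 48.6% of all genes, and 5 were called, Irgm1, Ifit1, Bst2, Igtp and Gbp5, against 0.12% of all genes. Their score, the median deviation from the 8-library mean, was 0.54, 0.24, 0.42 and 1.01 in old 1 to 4 and -0.83, -0.73, -0.61 and -0.33 in young 1 to 4. The ages did not overlap in this score. The same held for the score of the microglial list and for that of the endothelial leukocyte adhesion list. Old 4 was the highest library and young 4 the highest young one for the interferon score, for Ly6a and for Ly6c1. In old 1 that score was 0.54, and the Ly6a and Ly6c1 deviations were -0.30 and -0.52. Irgm1, a GTPase of the interferon response, rose in old mice, to 27.8 ± 4.34 CPM against 13.7 ± 0.493 CPM in young mice (SD, n = 4 each; log2 fold change 1.01 ± 0.14 SE, adjusted p = 0.0282, edgeR). All 5 calls were lost without old 1 or without any 1 of the 4 young libraries, and 3 of them without old 4. Whether interferon-stimulated expression has a part in the Ly6a and Ly6c1 values was not tested.

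Other genes of the Ly6 family were set beside Ly6a and Ly6c1. Of 10 tested Ly6 family genes 6 were positive and 4 negative, with a median of 0.06 and 0 called, these 2 included. Lynx1, a neuronal member that binds nicotinic receptors, averaged 560 ± 19.7 CPM in old and 659 ± 40.2 CPM in young mice (log2 fold change -0.24 ± 0.07 SE, adjusted p = 0.257, edgeR).

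Markers of other cells were followed because several of them also carry Ly6a, Ly6c1 or Pecam1. For microglia, 16 of 16 genes were positive (median 0.77, 0 called) and 11 were at an unadjusted p under 0.05, against 5.25% of all genes with old higher, with summed levels of 270 to 534 CPM in old and 174 to 228 CPM in young libraries. For blood leukocytes, 5 of 19 listed genes passed the filter on low counts, among them S100a8, S100a9 and Ccr2 only through old libraries. Directions in this list are therefore not counted, and 0 genes were called. The summed level of the list was 14.6 to 52.2 CPM in old and 7.86 to 11.1 CPM in young libraries. Ptprc, the common leukocyte antigen that microglia also express, had 343 counts over the 4 old and 93 over the 4 young libraries (adjusted p = 0.0567, edgeR), and 12 listed leukocyte genes were at 0 in at least 1 library. The T-cell genes Cd3e and Cd3d had 12 and 2 counts over the old and 8 and 2 over the young libraries, and Ccr2, of monocytes, had 65 over the old, of which 39 were in old 4, and 18 over the young libraries. The part of these cells in the Ly6a, Ly6c1 and Pecam1 values was not tested.

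Lists of other cells gave 0 calls. Pericyte and smooth muscle genes had 6 positive and 8 negative log2 fold changes (median -0.05), and perivascular and meningeal fibroblast genes 7 positive and 4 negative (median 0.24). Genes of astrocyte endfeet had 2 positive and 11 negative (median -0.06). Choroid plexus genes, whose sums spanned 52.7 to 1180 CPM in old and 40.5 to 527 CPM in young libraries, had 13 positive of 13 (median 1.33), and granule neuron genes 1 positive of 14 (median -0.17). Granule neuron genes, the markers of the labelled tissue, were present in every library, with sums of 5000 to 6960 CPM in old and 5470 to 8420 CPM in young libraries. Erythroid genes had 6 positive of 7 (median 0.51), and genes marking liver sinusoidal endothelium 4 positive of 5 (median 0.28). Close relatives of the 10 genes had 8 positive and 6 negative (median 0.01). Of 12 liver genes 5 passed the filter on low counts, 10 were at 0 in at least 1 library, and 0 were called. Old 2, old 3 and young 4 had the most liver transcripts, with sums of 93.7, 26.9 and 23.6 CPM over these genes, and no other library exceeded 12.7 CPM. Without those 3 libraries 0 of the 10 barrier genes were called, Ly6a was at 0.98 and Ly6c1 at 0.80 on the log2 scale, and Pecam1 was at 0.07. That fit kept only old 1 and old 4 of the old libraries. Ly6a was at 8.50 and 24.6 CPM in them and Ly6c1 at 7.22 and 20.4 CPM, so both estimates rest on old 4. Old 2 and old 3 lay above every young library for both genes, and young 4 was the highest young one. The part of liver transcripts in these values was not tested.

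Sex gave a second comparison over the same 8 mice, 4 females and 4 males. Ly6a averaged 14.3 ± 7.44 CPM in females and 9.01 ± 3.33 CPM in males, and Ly6c1 13.6 ± 5.79 CPM in females and 9.32 ± 4.28 CPM in males (SD, n = 4 each). edgeR called 0 of the 10 genes between the sexes (adjusted p 0.93 to 0.999), against 6 of all genes, or 0.0423%, and DESeq2 and limma-voom also called 0 of the 10. At an unadjusted p under 0.05 only Ly6a was reached, against 4.76% of all genes and 2.62% with females higher, with a log2 difference, female minus male, of 0.64 ± 0.25 (SE). It was 0.39 without old 4 and 0.26 with the replicate number as a block. Slco1a4 followed at 0.33 ± 0.15 and Ly6c1 at 0.54 ± 0.26, and Cldn5 had the lower mean in females, 28.8 ± 6.32 CPM against 35.8 ± 9.92 CPM in males (-0.31 ± 0.21). These too moved when 1 library was left out, to 0.15 for Slco1a4 without old 3, 0.30 for Ly6c1 without old 1 and -0.11 for Cldn5 without young 1.

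The age difference was also set between the sexes, with 2 mice in each cell. The difference of age effects on the log2 scale, female minus male, was positive for 9 of the 10 genes, with Slc2a1 the exception at -0.05 ± 0.25 (SE). Over all 14191 genes tested the median of this difference was -0.012. The 10 genes vary together across libraries, so these signs are not 9 separate observations. In females the log2 age fold change of Pecam1 was 0.66 ± 0.22 and in males -0.06 ± 0.22, and that of Flt1 was 0.51 ± 0.17 in females and -0.05 ± 0.17 in males. Old females averaged 15.4 CPM of Pecam1 and young females 9.83 CPM, while old males averaged 12.4 CPM and young males 12.9 CPM. No interaction passed the test: edgeR called 0 of the 10 and 0 of all genes (0%), with an adjusted p of 1 for each of the 10. At an unadjusted p under 0.05 Pecam1 and Flt1 were reached, both positive, against 2.3% of all genes and 1.52% with a positive value. DESeq2 called 1 gene over all genes and limma-voom 0, with 0 of the 10 in either. Old 4, the highest library for 7 of the 10 genes, is 1 of the 2 old females, and the interaction of Ly6a was 0.42 with it and -0.005 without it.

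Across the 8 libraries, the 10 genes formed 45 pairs, of which 42 correlated positively in log2 CPM with a median Pearson r of 0.42 and a range of -0.24 to 0.91. The pairs share their libraries, and both ages enter each r, since 4 libraries of 1 age are too few for an r of their own. Ly6a and Ly6c1 varied most closely, with r = 0.906 (exact permutation p = 0.00104, adjusted p = 0.0268 over 45 pairs) and rho = 0.81 (exact permutation p = 0.0218, adjusted p = 0.245). Without the libraries farthest from the median, old 4 and young 2, r was 0.973. The 2 genes share exon sequence (15% of the 50-base stretches of Ly6a), and the part of shared reads in this r was not tested.

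Ly6c1 and Slc2a1, which share no exon stretch of 50 bases, correlated at r = 0.884 (exact permutation p = 0.00119, adjusted p = 0.0268) and rho = 0.929 (exact permutation p = 0.00223, adjusted p = 0.1). Without old 3 and old 4, r was 0.718. The junction pair Cdh5 and Pecam1 had r = 0.773 (exact permutation p = 0.0291, adjusted p = 0.328), and 0.876 without old 1 and old 4. These 2 of 45 pairs with Ly6c1 were the only ones past an adjusted p of 0.05 and 4 pairs were under 0.05 unadjusted.

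**Figure D5:**
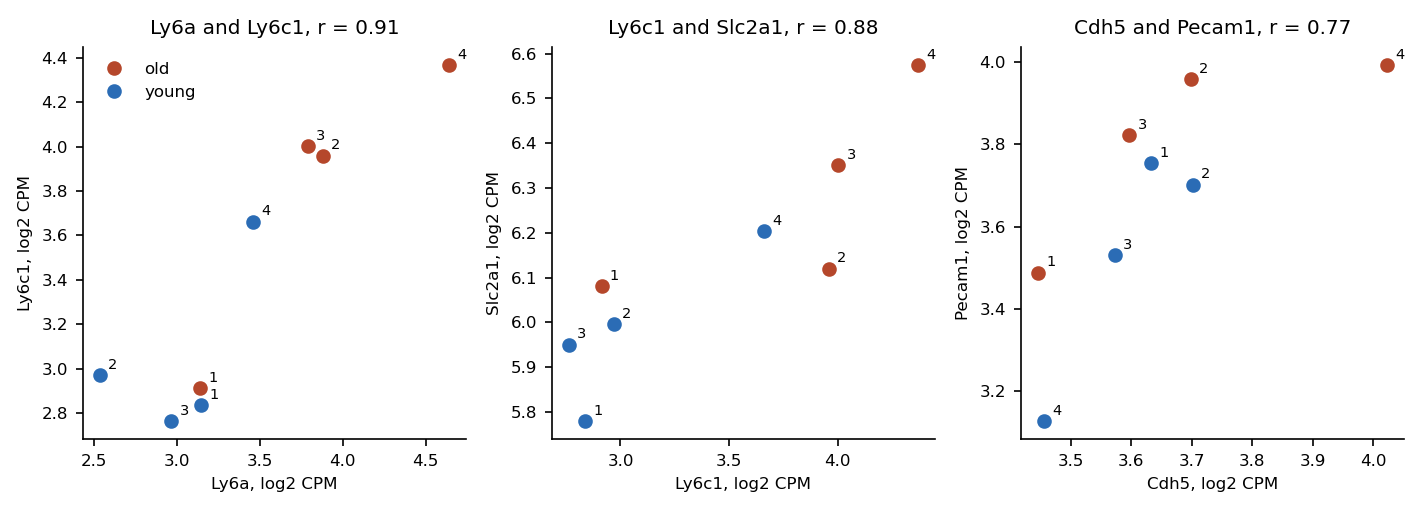
Log2 CPM of 3 pairs of genes in the 4 old and 4 young libraries, with the replicate number beside each point. Old 4 is at the top right of each panel, and in the first panel (r = 0.91) old 2 and 3 follow it while old 1 lies among the young libraries.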

How the data were processed

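Libraries of total RNA depleted of ribosomal RNA (Zymo-Seq RiboFree kit) were made from frozen cerebellum, per the labels' protocols. The authors deposited 1 table of raw counts per gene and library, not normalized, as the file headers and their whole numbers show. The submitters' processing notes name Trimmomatic 0.39, STAR 2.7.5b, SAMtools 1.10 and featureCounts, with GRCm38 and mm10 as builds. How genes were annotated, strands handled and multi-mapping reads counted was not given in the sources used here. Dates had replaced 24 gene symbols in all tables but 1, so tables were matched row by row and took their symbols from old 1. Of the 17700 genes, 17587 matched GENCODE M21 (GRCm38) by symbol, which gave coordinates and exon lengths.

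Genes were kept by edgeR's filterByExpr (minimum of 10 counts, groups of age and sex), 14191 in all, and libraries were scaled by TMM. CPM uses the scaled totals, and log2 CPM a prior count of 2. All 8 libraries entered the quasi-likelihood test of edgeR 4.0.16 in R 4.3.3 (robust dispersions, terms for age and sex), and the interaction was tested over the 4 cells of age and sex. Standard errors divide the absolute log2 fold change by the root of the F statistic, intervals are 95%, and Benjamini-Hochberg adjustment covered every gene tested, with a threshold of 0.05. Scripts were tested on simulated data. Correlations used exact permutation over the 40320 orders of the 8 libraries.

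The 10 genes and 21 lists were chosen with earlier results of these data known. Named genes were all 10, and of each list the genes past the threshold for age or otherwise up to 3 with the smallest p, plus 3 pan-endothelial genes with the highest level and the close relatives of the 10. The leukocyte genes given by counts were chosen after their values were seen. Libraries of a group differed by more than sampling noise (chi-square over degrees of freedom 3.96 to 10.8). Samples of a group are biological replicates by the design text, though it names another tissue. Equal replicate numbers did not pair old and young samples. Alternatives were DESeq2 1.42.0 (size factors and Wald test), limma-voom (limma 3.58.1), other filters and dispersions, models without the other factor, with the replicate number, with age in weeks or with a choroid plexus, granule neuron or pan-endothelial score, and each library left out. Counting error limits precision at these depths.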

Additional observations from a re-analysis of the deposited data

Results flagged for a closer look

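Of 64 groups of 4 libraries tested for a library apart from the others (the 10 barrier genes and the summed level of 21 lists and of the 10 genes, in each age), 2 had one, and chance alone gives about 1 in 20. Abcb1a stood at 32.0 CPM in old 4, while old 1, 2 and 3 lay between 23.1 and 23.9 CPM. The summed level of genes marking liver sinusoidal endothelium was 78.3 CPM in old 4, and 40.2 to 45.4 CPM in old 1, 2 and 3. The sum of the liver genes was 4.26 CPM in old 4, against 12.7, 93.7 and 26.9 CPM in old 1, 2 and 3. The microglial sum was 534 CPM in old 4, the highest of the libraries. What raised the sinusoidal list in old 4 was not tested. Both outlying values are of old 4, which was also the highest library for 7 of the 10 genes.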

How the results depend on the processing

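No alternative called any of the 10 genes, for age, for sex or for their interaction, and the age log2 fold changes of Ly6a (0.43 to 1.06), Ly6c1 (0.37 to 0.98), Slc2a1 (0.21 to 0.40) and Slco1a4 (0.16 to 0.50) kept their sign in all 21. The cause of each change below was not tested.

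Over all genes, 17 were past the threshold for age, against 125 with the DESeq2 Wald test, 1 with limma-voom, 26 with older edgeR dispersions, 103 with age in weeks, 0 with the choroid plexus score, 117 with the granule neuron score, 0 with the pan-endothelial score, 184 without old 2, old 3 and young 4, and 0 to 63 without 1 library. Listed genes past it numbered 5, against 23, 0, 10, 22, 0, 17, 0 and 30 in the same settings and 0 to 17 without 1 library. For sex 6 were past it, against 40 without those 3 libraries and 4 to 46 without 1. For the interaction it was 0, against 1 with DESeq2, 17 with the pan-endothelial score, 11 without the 3 libraries and 0 to 2 without 1. The median of the 10 genes was 0.26 for age, -0.043 with the pan-endothelial score, and 0.163 to 0.305 without 1 library. Pairs past the threshold numbered 2, against 0 without the 2 farthest libraries, where 6 libraries allow too few orders for a lone pair to pass, and 0 to 1 without 1. With the longest transcript, CPM per kilobase was 3.675 for Pecam1, 11.14 for Flt1, 13.59 for Ly6c1 and 8.329 for Slco1a4.

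Equal replicate numbers did not pair the samples (r of old with young deviations 0.156, -0.222, -0.048 and -0.252 for numbers 1 to 4). With the replicate number as a block, 1 gene was past the threshold for age, 0 of the listed genes and 4 for sex, and Ly6a was at 0.90 for age (adjusted p = 0.606, edgeR). The block turned the sex difference of Cdh5 to -0.019, Ly6c1 to -0.113, Slc2a1 to -0.139 and Mfsd2a to -0.051. It was not run for the interaction.

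Signs that turned for age were Abcb1a (-0.006 with the choroid plexus and with the granule neuron score), Mfsd2a (0.002) and Ece1 (0.075) with the granule neuron score, and Cdh5 (-0.139), Pecam1 (-0.022), Flt1 (-0.064), Abcb1a (-0.137) and Ptprb (-0.044) with the pan-endothelial score. For sex they were Pecam1 with limma-voom (0.044) and without the 3 libraries (0.12), Cdh5 with the pan-endothelial score (-0.006) and Mfsd2a without the 3 libraries (-0.12). For the interaction they were Slco1a4 (-0.269) and Slc2a1 (0.517) with the choroid plexus score, Cldn5 (-0.313), Flt1 (-0.218), Ly6a (-1.525), Ly6c1 (-1.993), Abcb1a (-0.015) and Mfsd2a (-0.071) with the pan-endothelial score, and Slc2a1 (0.437) without the 3 libraries. Leaving out 1 library turned signs within these ranges. For age they were Cldn5 -0.337 to 0.087, Cdh5 -0.009 to 0.189, Abcb1a -0.093 to 0.137, Mfsd2a -0.269 to 0.041 and Ece1 -0.202 to 0.021. For sex they were Cdh5 -0.021 to 0.177, Pecam1 -0.16 to 0.125, Flt1 -0.225 to 0.02, Abcb1a -0.048 to 0.166 and Mfsd2a -0.031 to 0.28. For the interaction they were Ly6a -0.005 to 0.8, Ly6c1 -0.247 to 0.877 and Slc2a1 -0.299 to 0.157.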
